A study of Mus musculus with 8 samples.

Results

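The genes described here are 44 genes of antioxidant defence, taken from RNA sequencing of the cortex of 4 Nuak1 KO and 4 WT mouse embryos at E18.5. NUAK1 is a kinase related to AMPK. The genes were chosen by symbol, where their counts summed to 80 or more over the 8 libraries. All 44 were found, among the 21165 gene rows of the count table, and all 44 were among the 12699 genes tested. They fall into a thioredoxin arm of 15 genes, a glutathione arm of 20 genes, 4 superoxide dismutase and catalase genes, and 5 genes of the NRF2 axis. The KO embryos, 2 males and 2 females, came from a constitutive Nuak1 KO line, and the WT embryos, 1 male and 3 females, carried the wild-type allele. Both genotypes were drawn from the same 3 litters by the sample labels, while the design text speaks of 4 litters. The study's methods give a C57Bl/6JRj background and name Nuak1 tm1a(KOMP)Wtsi as its floxed line, and how the constitutive allele was made is not given in the sources used here. The allele is constitutive, so the loss was not limited to neurons.

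Cells keep hydrogen peroxide and oxidised proteins in check with a pair of electron relays that both draw on NADPH. In the thioredoxin relay, thioredoxin reductases reduce thioredoxins, which reduce most peroxiredoxins and methionine sulfoxide reductases. In the glutathione relay, glutathione is made by glutamate-cysteine ligase and glutathione synthetase, kept reduced by glutathione reductase, and used by glutathione peroxidases, glutaredoxins and glutathione transferases. Many of these genes are induced through the transcription factor NRF2, encoded by Nfe2l2 and held in check by KEAP1, which acts at antioxidant response elements. Neurons of the developing cortex are known for low NRF2 activity and lean on astrocytes for part of their glutathione supply.

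Libraries are named by genotype and by the running number of their column, which no source ties to an embryo, litter or sex. They held between 9643711 and 27014858 counts, and no pair of libraries of a genotype agreed within sampling noise (lowest chi-square per degree of freedom 5.73). The WT libraries held 1204 ± 260 normalized counts of Nuak1 and the KO libraries 14.2 ± 4.35 (SD, n = 4 for both). Counts are given throughout as normalized counts, put on a common library size with TMM factors. Among 9 marker lists, the 5 tested meningeal fibroblast genes were all higher in KO at an unadjusted p under 0.05. Their list, with 9 genes in the table, summed to 10333 normalized counts in KO library R1, 341 to 508 in the other KO libraries and 277 to 383 in WT. Endothelial markers summed to 5508 in KO library R1, 3512 to 4198 in the other KO libraries and 3314 to 3770 in WT, and 2 of the 11 tested passed, both higher in KO. KO library R1 was also the highest in microglia markers, with 1295 against 682 to 934 in the other KO libraries and 650 to 922 in WT (9 of 9 tested higher in KO, 0 passing with edgeR), and in pericyte markers (6 of 6 higher, 1 passing). Cortical neuron markers summed to between 37339 and 42186 in KO and between 32167 and 39544 in WT, with WT library R4 lowest, and 1 of the 7 tested passed as higher and 2 as lower. Astrocyte and oligodendrocyte lineage markers summed to 6880 in WT library R4, 4080 to 5260 in the other WT libraries and 4659 to 5477 in KO (8 tested, 0 passing with edgeR). Progenitor markers summed to between 23492 and 27647 in KO and between 22035 and 31583 in WT. Of the 8 tested, 1 was higher in KO and 1 passed, as lower, with a median of -0.11 on the log2 scale. Calls of members that changed without KO library R1 are given with and without it, and the part of these cell types in any result was not tested.

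A small number of members rose in KO. At an unadjusted p under 0.05, 6 of the 44 genes were higher in KO (13.6%), against 4.51% of all genes tested, and 1 was lower (2.27%), against 3.18% (edgeR's quasi-likelihood test). The genes that rose were the thioredoxin reductase Txnrd1, the peroxiredoxin Prdx4, the glutathione peroxidase Gpx1, the quinone reductase Nqo1, the glutaredoxin Glrx3 and the glutathione transferase Gstm5, and the gene that fell was the methionine sulfoxide reductase Msra. In either direction, 7 of the 44 passed (15.9%), against 7.69% of all genes tested. At the study's thresholds, which add a log2 fold change beyond 0.25 in either direction to that p, 3 members were called (6.82%), against 4.25% of all genes. These were Txnrd1, Prdx4 and Nqo1, all higher, against 2.45% of all genes called as higher. The study applied its thresholds to DESeq2, which here called 2 members, Txnrd1 and Prdx4, against 489 of 12699 genes. These counts rested on single libraries. Those over all genes, 977 at an unadjusted p under 0.05 and 540 at the study's thresholds, also moved with single libraries. Without KO library R1, 4 members passed an unadjusted p of 0.05 (Txnrd1, Prdx4, Gpx1 and Gclc), against 726 of 12899 genes tested. At the study's thresholds it was 1 member, against 456 genes. Without WT library R2, 4 members passed an unadjusted p of 0.05, against 1029 of 12676 genes. Without KO library R3, 3 did (Txnrd1, Prdx4 and Nqo1), against 654 of 12677 genes. At the study's thresholds 6 members were called without KO library R2, against 693 of 12943 genes. Without WT library R4 it was 5, against 847 of 12887. After Benjamini-Hochberg adjustment over all genes, edgeR called 0 members, against 0.0709% of all genes (0.0315% higher and 0.0394% lower), and the adjusted p of the 7 lay between 0.358 and 0.646. DESeq2 called 1 member at an adjusted p under 0.05, Txnrd1, against 0.551% of all genes, and 6 at an unadjusted p under 0.05, against 7.21%. In 5 genes (11.4% of members) every KO library was above every WT library, against 2.64% of all genes, and in 0 genes was KO below WT, against 1.85%, or 4.49% of all genes in either direction. Nqo1, among these 5 and among the edgeR calls above, passed edgeR's filter on low counts only through its KO libraries. It therefore lends these counts no support. The cortex is a mixture, so a change in the number of cells of a type and a change in RNA per cell cannot be told apart.

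**Figure D1:**
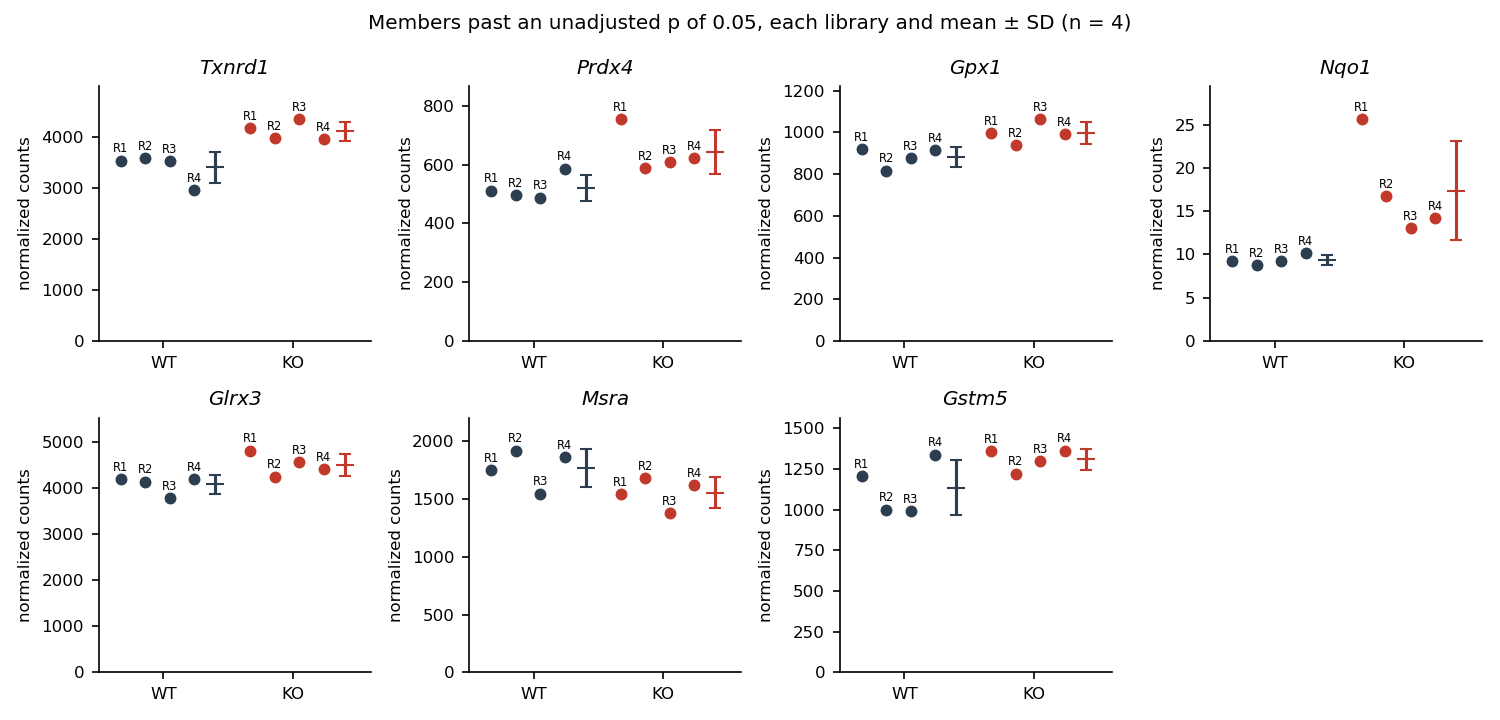
Normalized counts (y axis, from 0) of the 7 members with an unadjusted p under 0.05, with a point for each library R1 to R4 of WT and KO and the mean ± SD (n = 4) beside them. Txnrd1, Prdx4, Gpx1, Nqo1 and Glrx3 show all KO points above all WT points, while in Msra and Gstm5 the genotypes overlap.

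Across the whole list, changes were small. Of the 44 genes, 30 were higher and 14 lower in KO, with a median of 0.05 on the log2 scale, while 45.6% of all genes tested were higher, with a median of -0.01. Without KO library R1, 27 of 44 members were higher (61.4%), with a median of 0.04, against 49.9% of all genes. Without WT library R3 it was 25 of 44 (56.8%), with a median of 0.01, against 49.7% of all genes, and without WT library R4 34 of 44 (77.3%), with a median of 0.12, against 49.96%. The members took up 0.346 ± 0.0155% of all counts in KO and 0.332 ± 0.0156% in WT (SD, n = 4 for both), so the summed level overlapped between genotypes. The median of the thioredoxin arm was 0.06 on the log2 scale, with 11 of 15 genes higher, and the glutathione arm 0.04, with 12 of 20 higher. The direction of the glutathione arm rested on single libraries, with 9 of 20 higher and a median of -0.02 without WT library R3, 10 of 20 and -0.01 without WT library R2, and 15 of 20 and 0.16 without WT library R4. The median of the thioredoxin arm lay between 0.02 and 0.10 over such fits. Whether the arms differ was not tested.

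**Figure D2:**
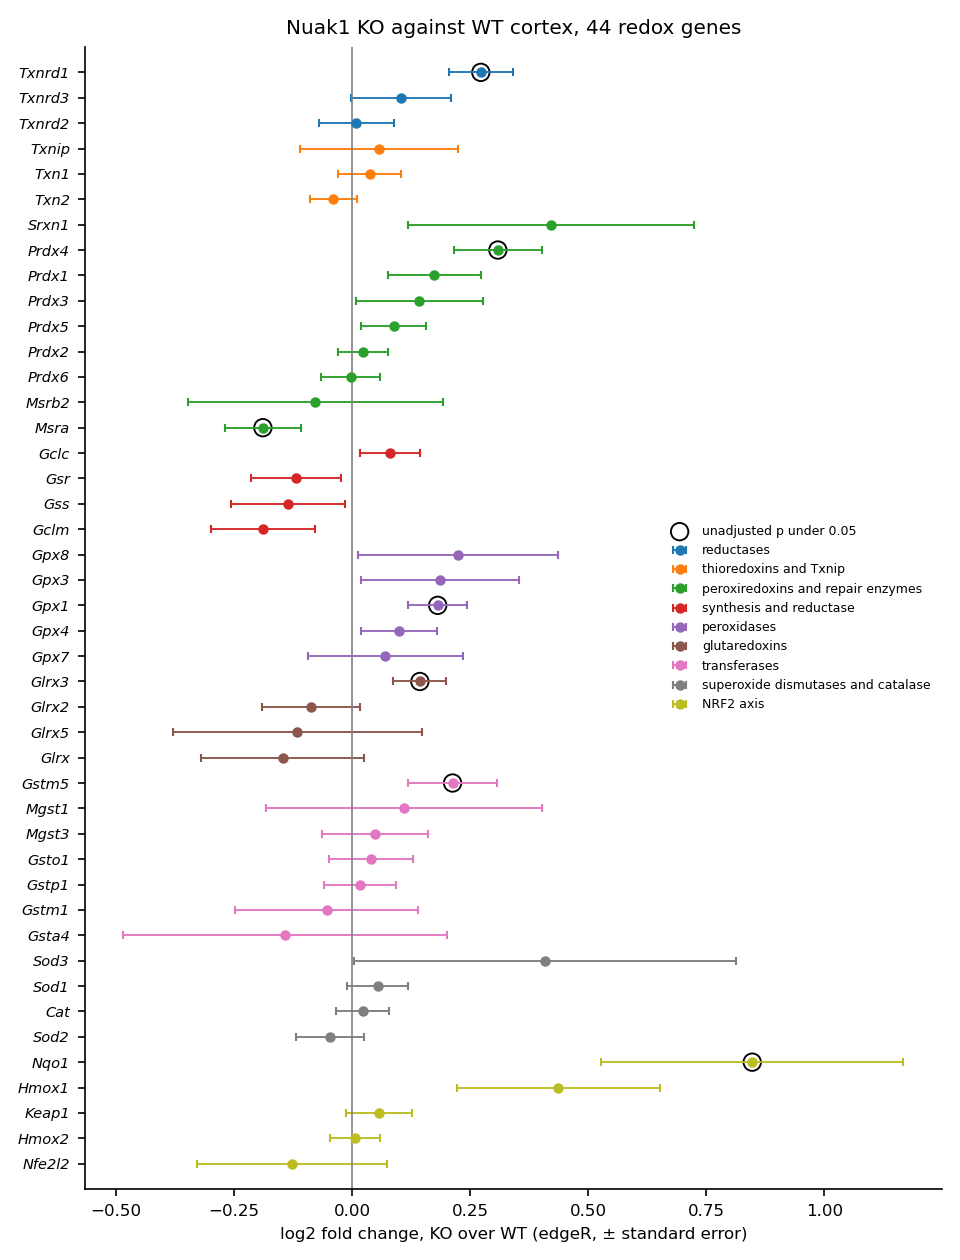
Log2 fold change of KO over WT (x axis) with its standard error from edgeR for each of the 44 genes (rows), coloured by role and ordered within a role. Circled genes had an unadjusted p under 0.05, from Msra at -0.19 to Nqo1 at 0.85, and the other genes lie between -0.19 and 0.44.

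Thioredoxin reductases stand at the head of the first relay, with TXNRD1 in the cytosol, TXNRD2 in mitochondria and TXNRD3 best known from testis. Txnrd1 had 3537, 3590, 3525 and 2958 normalized counts in WT libraries R1 to R4 and 4168, 3973, 4347 and 3963 in KO libraries R1 to R4. Each KO library exceeded each WT library, and WT library R4 was low against the other WT libraries. The log2 fold change was 0.27 (standard error 0.07, unadjusted p = 0.0019 from edgeR), a rise of 1.21-fold. A 2-sided exact permutation test can only restate this separation, at the smallest p that 4 against 4 libraries allow (p = 0.0286). The adjusted p of Txnrd1 over all genes was 0.358 with edgeR and 0.0232 with DESeq2, and lay between 0.174 and 0.889 over the other alternatives, so the call depended on the test. Without WT library R4 the log2 fold change was 0.22 (unadjusted p = 0.00105 from edgeR), under the fold of the study's thresholds, as it also was without KO library R3 at 0.24, and without KO library R1 it was 0.27.

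The other reductases were not called. Txnrd2 had 311, 303, 313 and 346 normalized counts in WT and 309, 336, 311 and 324 in KO, a log2 fold change of 0.01 (standard error 0.08). Txnrd3 had 390, 383, 398 and 517 in WT and 427, 412, 468 and 490 in KO, a log2 fold change of 0.10 (standard error 0.11). In both genes the genotypes overlapped, and in Txnrd3 WT library R4 was the highest of all 8 libraries. Without that library the log2 fold change of Txnrd3 was 0.21 (unadjusted p = 0.0268 from edgeR). Per length, the mean level of Txnrd1 in WT was 51.3 RPKM (normalized counts per kilobase of exon, scaled by library size), against 9.01 for Txnrd3 and 5.77 for Txnrd2.

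Txnrd1 lies on the plus strand of chromosome 10 from 82296696 to 82360469 (NCBIM37, the assembly behind mm9), 1.47 Mb from the end of Nuak1 that faces it, so its level was read against its neighbours. Of the 5 nearest tested genes on each side, 5 were higher and 5 lower in KO, and 2 of the 10 passed an unadjusted p of 0.05. These were Tdg (-0.83) and Brawnin (-1.60, listed as 1190007I07Rik), both lower and both on the side away from Nuak1. The 3 genes between them and Txnrd1, Glt8d2, Hcfc2 and Nfyb, had log2 fold changes of -0.03, -0.04 and 0.12. On the other side, Chst11 had -0.21 and the next 4 genes 0.03, 0.03, 0.14 and 0.03. Between Txnrd1 and Nuak1, 6 genes were tested and 0 passed an unadjusted p of 0.05 with edgeR. An effect of the loss of NUAK1 on Txnrd1 and one of sequence linked to the targeted allele cannot be told apart in this design. The 44 genes are spread over 19 chromosomes, and Gpx4 is the other member on chromosome 10.

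**Figure D3:**
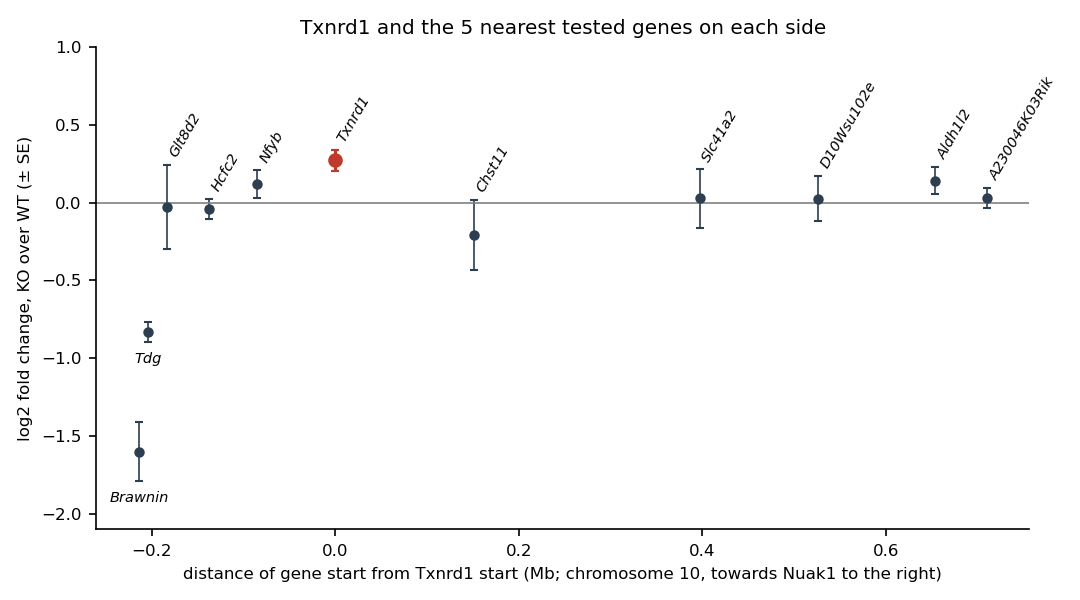
Log2 fold change of KO over WT with its standard error (y axis, edgeR) for Txnrd1 (red) and the 5 nearest tested genes on each side (dark), placed by the distance of their lower coordinate from that of Txnrd1 in Mb (x axis), with Nuak1 beyond the right edge. Txnrd1 at 0.27 has Tdg at -0.83 and Brawnin at -1.60 on its left, and the genes nearest to it on either side lie between -0.21 and 0.14.

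The promoter of Txnrd1 is printed because it holds the letters of an antioxidant response element, written as TGACNNNGC and searched on both strands. RefSeq gives 3 windows for Txnrd1, from 250 bases before to 50 after a start, and 1 of them has a match, at chr10:82858956-82859255 on the plus strand of GRCm38.p6. The match starts 92 bases before the start site and is in capitals, and it reads as the motif on the opposite strand.
Txnrd1: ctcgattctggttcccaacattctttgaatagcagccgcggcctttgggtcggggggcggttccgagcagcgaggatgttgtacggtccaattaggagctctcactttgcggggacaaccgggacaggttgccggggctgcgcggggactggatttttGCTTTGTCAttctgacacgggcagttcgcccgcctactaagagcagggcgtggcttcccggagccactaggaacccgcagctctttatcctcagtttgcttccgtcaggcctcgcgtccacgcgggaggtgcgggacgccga

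The thioredoxins that the reductases serve, and their inhibitor, were not called. Txn1, the cytosolic thioredoxin, had 1894, 1950, 1770 and 2203 normalized counts in WT and 2051, 1922, 1964 and 2071 in KO, a log2 fold change of 0.04 (standard error 0.07). Its WT libraries spanned a wider range than the KO libraries, which lay inside it. The mitochondrial Txn2 had a log2 fold change of -0.04 (standard error 0.05) and the lowest spread of all members, with a within-genotype SD of 0.0381 on the log2 scale, where the median was 0.153 over members and 0.142 over all genes tested. Txnip, which binds and inhibits thioredoxin, had a log2 fold change of 0.06, with 1013 to 1710 normalized counts in KO and 959 to 1528 in WT, and -0.09 without KO library R1.

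Most peroxiredoxins reduce hydrogen peroxide at the cost of thioredoxin. Prdx4, the peroxiredoxin of the endoplasmic reticulum, had 512, 495, 488 and 586 normalized counts in WT and 755, 588, 609 and 621 in KO. KO library R1 was high, and the lowest KO library was above the highest WT library by a narrow margin. This was a log2 fold change of 0.31 (standard error 0.09, unadjusted p = 0.00716 from edgeR), and 0.23 without KO library R1 (unadjusted p = 0.0162 from edgeR). Prdx4 lies on chromosome X from 151758461 to 151775297 (NCBIM37), and the genotypes differ in the number of males, so a part of sex was not tested.

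Prdx2, the peroxiredoxin with the highest level, had 12814, 13113, 12200 and 11842 normalized counts in WT and 13049, 12543, 13120 and 12067 in KO, a log2 fold change of 0.02 (standard error 0.05). The genotypes overlapped over most of their range. Prdx1 had a log2 fold change of 0.17 (unadjusted p = 0.107 from edgeR), Prdx3, the mitochondrial form, 0.14, Prdx5 0.09 and Prdx6 -0.0028. Prdx3 had 564 normalized counts in WT library R3 and 876 to 891 in the other WT libraries, and without WT library R3 its log2 fold change was 0.01. Srxn1, which restores over-oxidised peroxiredoxins, had a log2 fold change of 0.42 with a standard error of 0.30, at 9.25 to 18.4 normalized counts in WT and 15.4 to 23.6 in KO. At these low counts the change was not called (unadjusted p = 0.191 from edgeR).

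Methionine sulfoxide reductases repair oxidised methionine with electrons from thioredoxin. Msra had 1747, 1914, 1545 and 1860 normalized counts in WT and 1541, 1677, 1373 and 1617 in KO, a log2 fold change of -0.19 (standard error 0.08, unadjusted p = 0.0389 from edgeR). WT library R3 lay inside the range of KO. In 3 of the 8 fits with a library left out, Msra kept an unadjusted p under 0.05, and its log2 fold change was -0.24 without WT library R3 and -0.13 without KO library R3. Without KO library R1 it was -0.18 (unadjusted p = 0.0787 from edgeR). Msrb2, the mitochondrial form, had a log2 fold change of -0.08 (standard error 0.27).

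In the glutathione arm, 3 of 20 genes rose and 0 fell at an unadjusted p under 0.05 with edgeR. Over all genes tested, 4.51% rose and 3.18% fell at that p. The count rested on single libraries, with 0 genes of the arm passing without KO library R3 and 1 without WT library R3. Without WT library R2, 1 rose and 1 fell (Gclm). With all libraries, the genes that make and recycle glutathione were not among the 3 that rose. The catalytic subunit of glutamate-cysteine ligase, Gclc, had a log2 fold change of 0.08 (0.13 without KO library R1, unadjusted p = 0.0473 from edgeR), its modifier subunit Gclm -0.19 (unadjusted p = 0.114 from edgeR), glutathione synthetase Gss -0.14 and glutathione reductase Gsr -0.12. Gclm had 372, 371, 457 and 514 normalized counts in WT and 382, 392.3, 353 and 370 in KO. WT libraries R3 and R4 were high, and the other WT libraries lay inside the range of KO. Gsr and Gss were also highest in WT libraries R3 and R4, with 568 and 606 normalized counts of Gsr against 447 to 520 in the other 6 libraries.

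Glutathione peroxidases were all higher in KO, 5 of 5, at a median of 0.18 on the log2 scale, although Gpx7 turned lower without KO library R1, and 1 passed. Over all genes tested, 45.6% were higher and 7.69% passed an unadjusted p of 0.05 with edgeR. Gpx1, the cytosolic enzyme, had 920, 816, 877 and 914 normalized counts in WT and 996, 940, 1063 and 990 in KO. The genotypes did not overlap, by a gap smaller than the spread within either. Its log2 fold change was 0.18 (standard error 0.06, unadjusted p = 0.0149 from edgeR), and 0.19 without KO library R1. Without KO library R3 the unadjusted p was 0.0637 from edgeR, the highest of the 8 fits with a library left out. Gpx4, which protects membrane lipids, had a log2 fold change of 0.10 (standard error 0.08), but 42.6% of the 100-base stretches of its transcript also occur elsewhere in the genome, so reads may have been lost in counting. Gpx3, the secreted form, had a log2 fold change of 0.19 (standard error 0.17).

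Gpx7 and Gpx8, the peroxidases of the endoplasmic reticulum, had log2 fold changes of 0.07 and 0.22. Gpx7 had 114 normalized counts in KO library R1 against 77.4 to 80.3 in the other KO libraries and 74.5 to 94.6 in WT. Gpx8 had 151 in KO library R1, 81.6 to 113 in the other KO libraries and 80.1 to 128 in WT. Without KO library R1 the log2 fold changes were -0.06 and 0.06. That library held 10333 normalized counts of meningeal markers, and their part in these values was not tested. Prdx4, in the same compartment, kept its unadjusted p under 0.05 in all 8 edgeR fits with a library left out. Its log2 fold change was 0.23 without KO library R1, under the fold of the study's thresholds.

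Glutaredoxins reduce mixed disulfides with glutathione or carry iron-sulfur clusters. Glrx3, a cytosolic cluster carrier, had 4203, 4147, 3789 and 4204 normalized counts in WT and 4816, 4249, 4568 and 4415 in KO. The genotypes did not overlap, by less than the spread within either, and WT library R3 was low against the other WT libraries. The log2 fold change was 0.14 (standard error 0.06, unadjusted p = 0.0274 from edgeR), and 0.12 without KO library R1 (unadjusted p = 0.0671 from edgeR). Of the 8 fits with a library left out, 5 kept an unadjusted p under 0.05. Of the 100-base stretches of its transcript, 35.4% occur elsewhere in the genome. The other glutaredoxins were lower in KO and not called, with log2 fold changes of -0.15 for Glrx, -0.09 for Glrx2 and -0.12 for Glrx5, which turned higher without KO library R4 or WT library R4.

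Glutathione transferases attach glutathione to electrophiles. Gstm5, a transferase of the mu class known from brain and testis, had 1207, 1001, 990 and 1339 normalized counts in WT and 1358, 1221, 1298 and 1363 in KO. WT library R4 lay inside the range of KO and the other WT libraries below it. The log2 fold change was 0.21 (standard error 0.09, unadjusted p = 0.0455 from edgeR), and 3 of the 8 fits with a library left out kept an unadjusted p under 0.05. Without KO library R1 it was 0.20 (unadjusted p = 0.0854 from edgeR). A gene on the other strand, 4933431E20Rik, covers 13.9% of its exons, and the strand setting of the counting is not stated. Gstp1, the most abundant transferase, had 1493, 1356, 1346 and 1670 in WT and 1366, 1479, 1561 and 1510 in KO, a log2 fold change of 0.02 (standard error 0.08). Its KO libraries lay inside the range of WT, and 41.6% of its 100-base stretches occur elsewhere. Gstm1, Gsta4, Mgst1 and Mgst3 were each highest in WT library R4, as in Gsta4 with 82.8 normalized counts against 27.2 to 44.8 in the other 7.

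The promoter of Gstm5 is shown since it is the other gene that rose with these letters near its start. The window is chr3:107895604-107895903 on the plus strand of GRCm38.p6 (RefSeq), and the match in capitals starts 42 bases before the start site.
Gstm5: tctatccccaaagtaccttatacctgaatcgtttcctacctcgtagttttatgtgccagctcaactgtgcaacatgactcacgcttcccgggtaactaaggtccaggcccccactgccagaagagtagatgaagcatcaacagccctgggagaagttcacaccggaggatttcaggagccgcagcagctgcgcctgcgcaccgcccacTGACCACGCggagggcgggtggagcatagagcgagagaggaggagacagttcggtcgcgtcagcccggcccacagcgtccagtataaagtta

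Superoxide dismutases turn superoxide into hydrogen peroxide, which catalase removes, and 0 of these 4 genes passed an unadjusted p of 0.05 with edgeR, with 3 higher. Over all genes tested, 7.69% passed and 45.6% were higher. Sod1, the cytosolic dismutase, had 3288, 3333, 2999 and 3630 normalized counts in WT and 3513, 3156, 3505 and 3566 in KO, a log2 fold change of 0.05 (standard error 0.07). All its KO libraries lay inside the range of WT. Cat, which encodes catalase, had 2003, 1963, 1836 and 1747 in WT and 1887, 1954, 1852 and 1983 in KO, a log2 fold change of 0.02 (standard error 0.06). Its KO libraries too lay inside the range of WT. The mitochondrial Sod2 had a log2 fold change of -0.05. The secreted Sod3 had 35.9 normalized counts in KO library R1 and 8.76 to 20.6 in the other 7, and its log2 fold change of 0.41 became 0.02 without that library.

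In the NRF2 axis, 1 of 5 genes passed an unadjusted p of 0.05 with edgeR, against 7.69% of all genes tested. Nqo1, the quinone reductase that serves as a standard readout of NRF2, had 9.25, 8.76, 9.25 and 10.1 normalized counts in WT and 25.6, 16.7, 12.996 and 14.2 in KO. Every KO library was above every WT library and KO library R1 was far above the rest. The log2 fold change was 0.85 (standard error 0.32, unadjusted p = 0.0225 from edgeR), or 1.80-fold, on a total of 105 counts over the 8 libraries. Without KO library R1 it was 0.63 (unadjusted p = 0.0524 from edgeR), and DESeq2 gave an unadjusted p of 0.0593. Nqo1 passed edgeR's filter on low counts only through its KO libraries, with every WT library below the cutoff. Its call therefore lends no support to a rise. Without KO library R4 the filter removed Nqo1, and it was not tested. Hmox1, the inducible haem oxygenase, had 66.8, 41.2, 46.2 and 65.9 in WT and 88.4, 60.8, 61.9 and 84.3 in KO, a log2 fold change of 0.44 (standard error 0.21, unadjusted p = 0.0669 from edgeR). In KO, libraries R1 and R4 were above all WT libraries and the other two inside their range. Red blood cell markers summed to 5532, 7073, 3769 and 1701 normalized counts in KO libraries R1 to R4, and to 3637, 2865, 3814 and 1610 in WT libraries R1 to R4. Their part in the values of Hmox1 was not tested.

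The regulators themselves did not pass. Nfe2l2 had 76.0, 89.4, 95.1 and 60.8 normalized counts in WT and 96.1, 77.5, 71.2 and 55.3 in KO, a log2 fold change of -0.13 (standard error 0.20). All WT libraries lay inside the range of KO. Keap1 had 642, 589, 565 and 659 in WT and 637, 667, 604 and 648 in KO, a log2 fold change of 0.06 (standard error 0.07). Hmox2, the constitutive haem oxygenase, had 889, 889, 852 and 914 in WT and 925, 894, 876 and 866 in KO, a log2 fold change of 0.01 (standard error 0.05). In both genes the genotypes overlapped, and 40.2% of the exons of Hmox2 are covered by a gene on the other strand.

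Among 9 genes taught as NRF2 targets (Nqo1, Hmox1, Srxn1, Txnrd1, Gclc, Gclm, Gsr, Prdx1 and Gstm1), 6 were higher in KO, the median was 0.17 on the log2 scale, and 2 passed, Txnrd1 and Nqo1. The list was drawn up after the values had been seen and from background knowledge, and was given no test. Of all genes tested, 45.6% were higher, with a median of -0.01, and 7.69% passed in either direction (4.51% as higher). Nqo1 entered the test only through its KO libraries. A separate list, NRF2 partners and further targets, is among the further redox genes below. Of its 14 tested genes 9 were higher and 1 passed, Blvra, with a median of 0.02. Of the 44 members, 37 are in the RefSeq promoter table, with 50 windows, and 9 of them (24.3%) have a match to TGACNNNGC on either strand, against 14.0% of 27025 genes. Members often have several windows, so these shares are a description. Of the genes past an unadjusted p of 0.05, 6 are in the table and 2 have a match. Prdx6, Sod3, Gsr, Gclc, Gsta4, Hmox1 and Msra were not in the table. The matches of all 7 genes that did not pass are shown for comparison, with the 9 bases of the match in capitals, up to 10 bases on each side and the gene's own strand (GRCm38.p6, RefSeq). Gclm is at chr3:122245413-122245441, Prdx1 at chr4:116685456-116685484, Mgst1 at chr6:138140461-138140489, Sod1 at chr16:90220696-90220724, Srxn1 at chr2:152105542-152105570 and Msrb2 at chr2:19371665-19371685, all on the plus strand, and Nfe2l2 at chr2:75704885-75704913 on the minus strand.
Gclm: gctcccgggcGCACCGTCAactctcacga
Prdx1: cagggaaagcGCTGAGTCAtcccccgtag
Mgst1: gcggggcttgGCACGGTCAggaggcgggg
Sod1: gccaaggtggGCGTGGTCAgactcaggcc
Srxn1: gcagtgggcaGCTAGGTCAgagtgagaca
Msrb2: cccgttggtgGCAGCGTCAtg
Nfe2l2: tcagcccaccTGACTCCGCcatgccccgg
In Gclm, Prdx1, Mgst1 and Sod1, as in Txnrd1, the match reads on the opposite strand ahead of the start, beginning 134, 133, 56 and 56 bases before it. Their log2 fold changes were -0.19, 0.17, 0.11 and 0.05, against 0.27 for Txnrd1. In Srxn1 (0.42) and Msrb2 (-0.08) the match lies after the start, and in Nfe2l2 (-0.13) it reads on the gene's own strand.

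The levels of the members spanned a wide range. Sod1 was highest per length in WT, at 310 RPKM, followed by Prdx2 (248), Glrx3 (150), Gstp1 (118) and Txn1 (113). The WT libraries of Gstp1 and Txn1 overlapped, so their order is not clear. At the low end stood Nqo1 (0.364), Srxn1 (0.30) and Sod3 (0.245). Of the genes that rose at an unadjusted p under 0.05, Glrx3 ranked 3 by WT level among the 44, Gpx1 9, Gstm5 11, Txnrd1 13, Prdx4 22 and Nqo1 42.

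**Figure D4:**
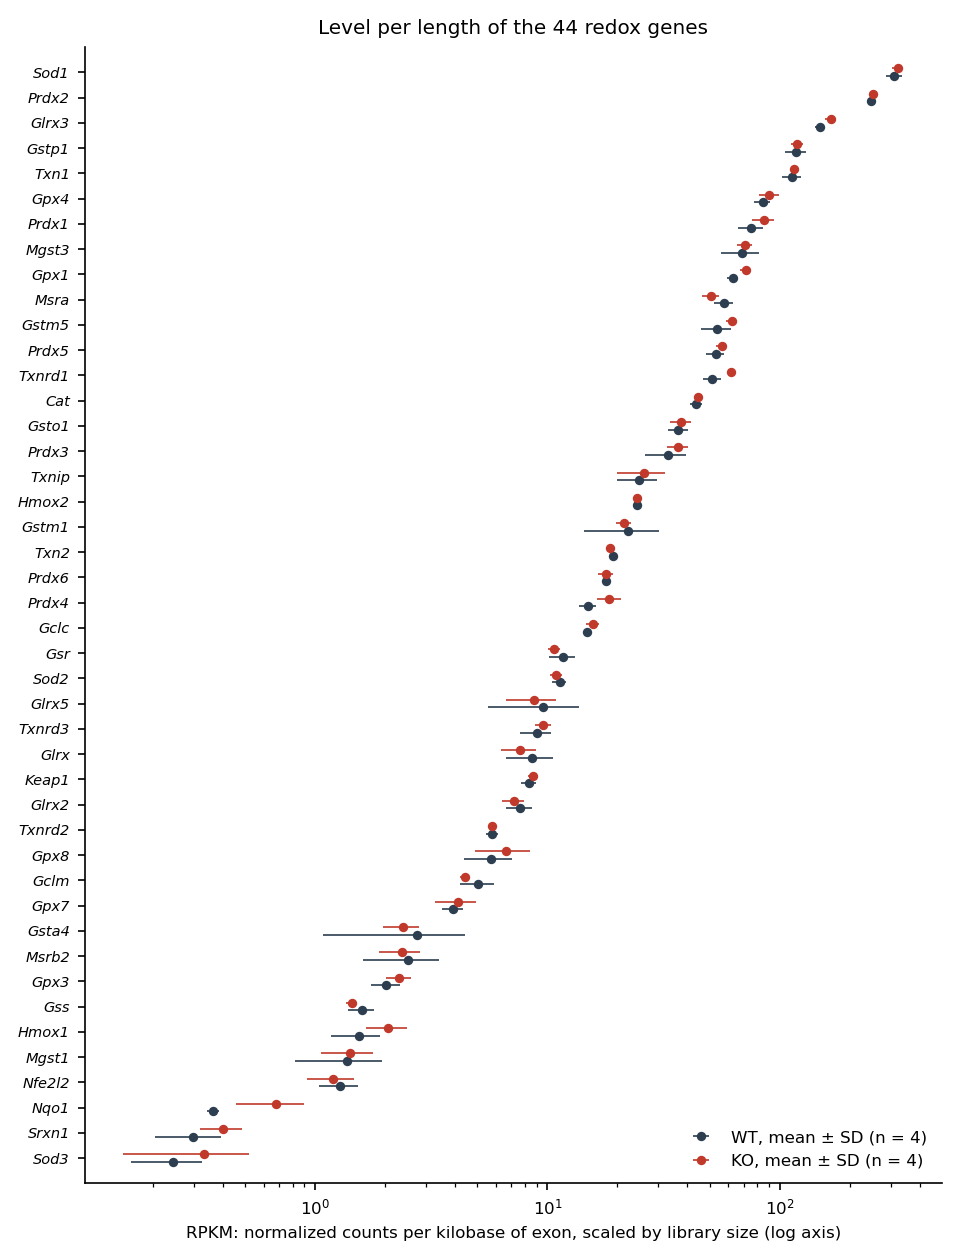
Level in RPKM (normalized counts per kilobase of exon, scaled by library size; x axis, log scale) for the 44 genes, ordered by WT level, with the mean ± SD (n = 4) of WT in dark and of KO in red. Sod1 leads at 310 in WT and Sod3 is last at 0.245, and for most genes the WT and KO bars overlap.

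Grouped by place in the cell, again from background knowledge and after the values had been seen, 7 enzymes of the mitochondrial matrix (Txnrd2, Txn2, Prdx3, Sod2, Glrx2, Glrx5 and Msrb2) lay at a median of -0.05 on the log2 scale, with 2 higher in KO and 0 past an unadjusted p of 0.05 with edgeR. The 3 peroxidases of the endoplasmic reticulum had a median of 0.22 and were all higher, except Gpx7 without KO library R1, and the 6 selenoproteins (Txnrd1, Txnrd2, Txnrd3, Gpx1, Gpx3 and Gpx4) a median of 0.14, also all higher, except Txnrd2 without KO library R2 or WT library R1 or R2, with 2 past an unadjusted p of 0.05. Those 2 were Txnrd1 and Gpx1, already described above. Over all genes tested, 45.6% were higher and 7.69% passed that p in either direction. Whether these groups differ from other genes was not tested.

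By library, members of a genotype did not move as a block. In KO library R1, Txnip, Prdx1, Prdx3, Prdx4, Prdx5, Prdx6, Gpx3, Gpx4, Gpx7 and Gpx8 were at their highest of all 8 libraries. So were Glrx3, Sod3, Nqo1, Hmox1, Hmox2 and Nfe2l2. The summed share of the members was also highest there, at 0.367% of all counts, against 0.312% to 0.350% in the other libraries. In WT library R4, Gclm, Gss, Gsr, Glrx, Glrx5, Gsta4, Gstm1, Gstp1, Mgst1 and Mgst3 were at their highest. So were Txnrd2, Txnrd3, Txn1, Msrb2, Sod1 and Sod2, while Txnrd1, Txnip, Prdx2 and Cat were at their lowest. The same library held the highest sum of astrocyte and oligodendrocyte lineage markers (6880) and the lowest of cortical neuron markers (32167), and their part in these values was not tested. WT library R3 held the lowest Txn1, Prdx1, Prdx3, Prdx4, Prdx5, Srxn1, Msrb2, Sod1, Keap1 and Hmox2. It also held the lowest Gpx4, Glrx3, Gstm1, Gstm5, Gstp1, Gsto1 and Mgst3. These orders are a description of single libraries.

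**Figure D5:**
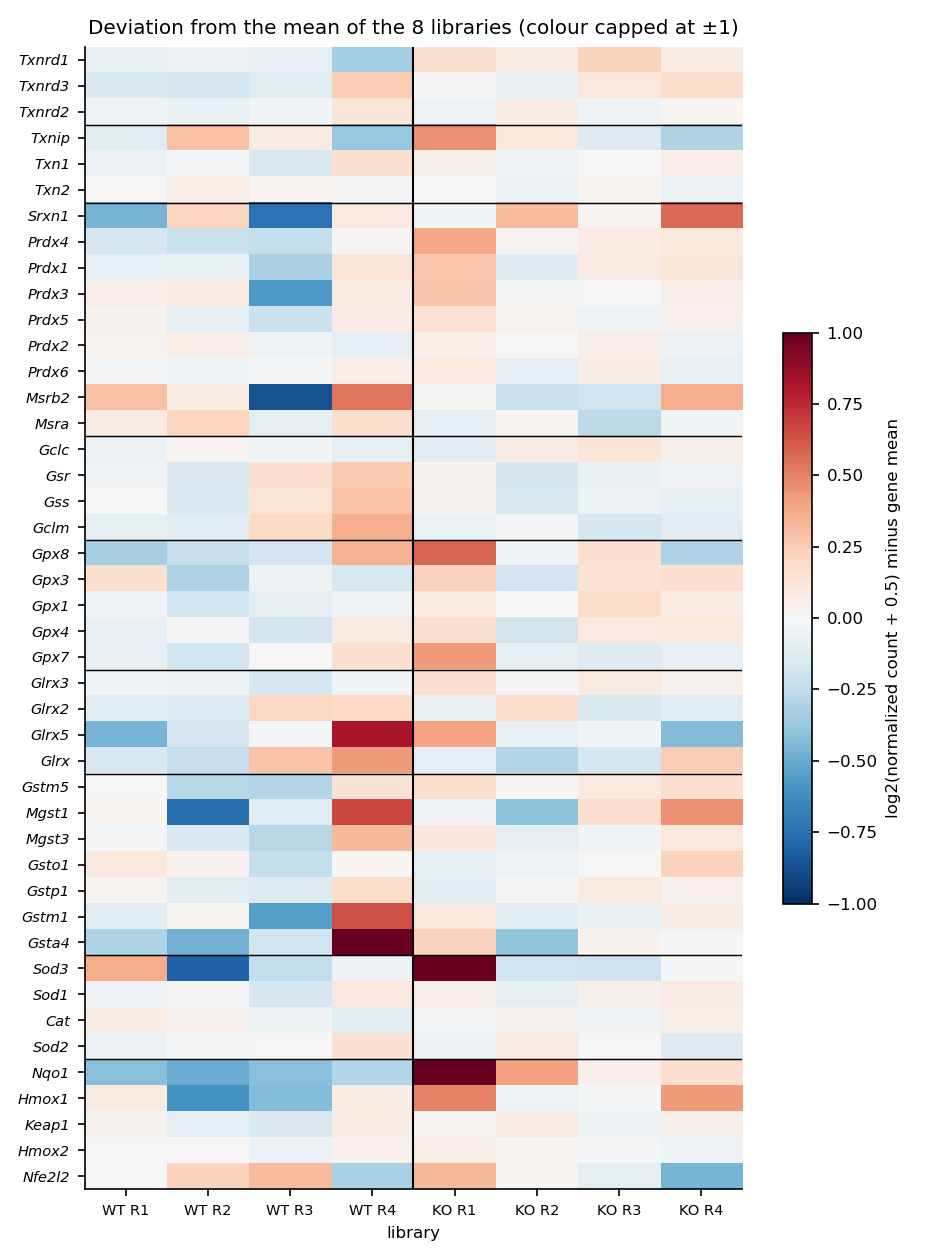
Deviation of log2(normalized count + 0.5) from the mean of the 8 libraries (colour, red above and blue below, capped at 1 in either direction) for the 44 genes (rows, in blocks by role) in WT libraries R1 to R4 and KO libraries R1 to R4 (columns). Red rows in KO library R1 include Nqo1 and Sod3, and red rows in WT library R4 include Gsta4, Glrx5 and Mgst1.

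To set the members against the rest of the pathway, 80 further redox genes were listed, of which 77 were in the table and 68 were tested. Of the 68, 40 were higher in KO (58.8%), against 45.6% of all genes tested, and the median was 0.02 on the log2 scale. At an unadjusted p under 0.05, 1 rose and 1 fell (edgeR), against 4.51% and 3.18% of all genes. Sesn3, a stress-induced regulator of growth signalling, fell, with 476, 535, 490 and 481 normalized counts in WT and 482, 409, 376 and 389 in KO. KO library R1 lay inside the WT range and the other KO libraries below it. Its log2 fold change was -0.27 (standard error 0.09, unadjusted p = 0.0129 from edgeR), and -0.34 without KO library R1 (unadjusted p = 0.00142 from edgeR). Blvra, biliverdin reductase, the step after haem oxygenase, rose, with 302, 329, 314 and 329 in WT and 413, 377, 346 and 350 in KO, without overlap, a log2 fold change of 0.22 (standard error 0.08, unadjusted p = 0.0258 from edgeR). Without KO library R1 it was 0.17 (unadjusted p = 0.0589 from edgeR). Of the 9 genes of NADPH supply, which feeds both relays, 4 were higher and 0 passed, with a median of -0.02, and of the 7 of cystine uptake and glutathione turnover, 6 were higher and 0 passed, with a median of 0.06. Among 11 further selenoproteins and genes of selenocysteine insertion, 6 were higher and 0 passed, with a median of 0.04, beside the 6 of 6 selenoproteins among the members.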

How the data were processed

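Poly-A RNA from the cortex of 8 embryos was sequenced as 100-base paired reads (TruSeq Stranded mRNA). Per the labels and methods, the authors trimmed reads with cutadapt 1.13 at a Phred quality of 20, kept reads of at least 25 bp, mapped them to mm9 with TopHat2 2.0.13 and counted them per gene with HTSeq-count, and deposited whole-number counts without normalization. Its strand setting is not stated, and reads shared with near-identical copies may have been lost. No column names more than a genotype, which set the groups, and 0 columns were left unused.

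Counts were tested with edgeR 4.0.16 in R 4.3.3 (TMM, filterByExpr, quasi-likelihood test, 2-sided, Benjamini-Hochberg adjustment over 12699 genes), checked on simulated counts. The standard error is the log2 fold change divided by the square root of F. DESeq2 1.42.0 was an alternative. Levels per length used exon lengths of NCBIM37 (GENCODE). Copies were sought as exact 100-base matches in NCBIM37.

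Members, role groups, further redox genes and marker lists were chosen with earlier results of these data known. Values by library are given for members past an unadjusted p of 0.05 or without overlap, the thioredoxin reductases and the 2 highest per length in each arm or group. Hmox1, Gclm and others outside this rule were added after their values were seen.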

Additional observations from a re-analysis of the deposited data

Results flagged for a closer look

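In each genotype, a library was looked at again where the distance to its nearest neighbour took up more of the range of the 4 than Dixon's 95% critical value allows. Of 106 groups of libraries examined, 12 were above it, where chance gives about 5.3, and of 88 groups of member values 9 were, where chance gives about 4.4.

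In WT library R4, Txnrd1 was low at 2958 normalized counts (others 3525 to 3590), while Txnrd3 at 517, Prdx6 at 1133 and Gsta4 at 82.8 were high. WT library R3 was low in Prdx3 at 564, in Glrx3 at 3789 and in summed endothelial markers at 3314. In KO library R1, Gpx7 at 114, Sod3 at 35.9, summed meningeal fibroblast markers at 10333 and summed choroid plexus markers at 89.7 were high. KO library R2 was low in Sod1 at 3156 (others 3505 to 3566). The low Txnrd1 and the low Glrx3 each lie on the WT side of a call. Without WT library R4, the log2 fold changes were 0.22 for Txnrd1, 0.21 for Txnrd3 and 0.33 for Gsta4, and without WT library R3, 0.11 for Glrx3 and 0.01 for Prdx3.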

How the results depend on the processing

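No paired analysis was possible because no column of the table can be tied to an embryo, litter or sex. Litter as a replicate block and sex as a covariate were therefore not run, and no result accounts for the unequal numbers of males. Low counts limit Nqo1, Srxn1 and Sod3.

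With a library left out in turn, members past an unadjusted p of 0.05 ranged from 3 without KO library R3 to 10 without KO library R2 or WT library R4 (4 without KO library R1 or WT library R2), against 7 with all libraries. At the study's thresholds they ranged from 1 without KO library R1 to 6 without KO library R2, against 3, and further redox genes from 1 to 8, against 2. Over all genes, 977 ranged from 651 to 1604, 540 at the study's thresholds from 426 to 847, and 9 past an adjusted p of 0.05 from 2 to 11, while DESeq2 gave 70. Txnrd1 passed an adjusted p of 0.05 with DESeq2 at 0.28 and lay between 0.22 and 0.30 over such fits. Gclc had an unadjusted p of 0.0473 from edgeR without KO library R1. Their cause was not tested.

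Of 524 log2 fold changes of members under the alternatives, 32 changed sign, in 17 members, and 0 of these had an unadjusted p under 0.05 with edgeR or DESeq2. The other 27 members kept their direction in all 12 alternative fits that tested them. Outside the fits with a library left out, Prdx6 alone changed sign, to 0.00542 with DESeq2, 0.0042 when edgeR took the size factors of DESeq2, 0.00704 with no filter and 0.0054 with 10 counts in every library. With a library left out, the log2 fold change went for Txnrd2 from -0.0146 (without WT R2) to 0.0546 (WT R4), Txn1 from -0.0018 (without WT R3) to 0.103 (WT R4), Txnip from -0.0929 (without KO R1) to 0.179 (WT R2), Prdx6 from -0.0305 (without KO R3) to 0.0387 (KO R2), Sod2 from -0.0763 (without WT R1) to 0.00457 (WT R4), Cat from -0.00624 (without WT R4) to 0.0523 (WT R1). It went for Gpx7 from -0.0619 (without KO R1) to 0.136 (WT R4), Glrx5 from -0.274 (without WT R1) to 0.198 (WT R4), Gsta4 from -0.323 (without WT R2) to 0.333 (WT R4), Gstm1 from -0.205 (without WT R3) to 0.193 (WT R4), Gstp1 from -0.0202 (without WT R2) to 0.0885 (WT R4), Gsto1 from -0.0334 (without KO R4) to 0.0845 (KO R1). Further, it went for Mgst1 from -0.10 (without WT R2) to 0.383 (WT R4), Mgst3 from -0.0238 (without WT R3) to 0.181 (WT R4), Hmox2 from -0.00659 (without WT R3) to 0.0266 (WT R4), Nfe2l2 from -0.26 (without KO R1) to 0.00476 (KO R4), Msrb2 from -0.285 (without WT R3) to 0.0815 (WT R4).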
